A study of Mus musculus with 8 samples.

Results

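Olfactory receptor (Olfr) gene clusters of the mouse genome were examined in peak lists of chromatin immunoprecipitation sequencing (ChIP-seq) against tagged EHMT2. The members were chosen by position alone. Each of the 1407 GENCODE genes whose symbol starts with Olfr was extended by 50 kb on both sides, overlapping intervals were merged, and every peak touching an interval was taken. This gave 91 olfactory spans on 19 of 21 chromosomes and 1033 peaks of 70200 in all lists. The spans held 207 of 11010 peaks of the C29F4 list, 603 of 40816 of the ab9110 DMSO list, 186 of 16324 of the ab9110 dTAG list and 37 of 2050 of the input list.

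The cells were mouse embryonic stem cells of the EHMT2-dTAG-mcherry line, labelled BL6/129 hybrid and derived, per the methods, from KH2 cells of a C57BL/6J x 129S1 cross, in which all groups carried the same allele. Ehmt2 was edited at its own locus, so that the protein ends in an FKBP12-based degron and 2 HA tags and mCherry reports its transcription. An HA antibody therefore pulls down EHMT2, and the compound dTAG leads to its degradation. C29F4 and ab9110 are HA antibodies, DMSO is the solvent control, and all cells were treated for 24 h. The 8 samples were 2 ChIP and 2 input samples from DMSO with C29F4, and 1 ChIP and 1 input sample each from DMSO and from dTAG with ab9110. The methods name 2 independent clones for the C29F4 ChIP and a feeder layer of fibroblasts under the cells. They describe the ab9110 ChIP as a separate experiment, so antibody and experiment cannot be told apart between the C29F4 and ab9110 lists. Input is chromatin sequenced without pulldown, and the input list used here came from the dTAG cells. The C29F4 list was called on merged replicates and every other list on a single library, so no difference between lists has a replicate check. Peak lists hold no expression values, and the stem cell label was not checked against marker genes. All intervals below are 95% intervals and cover counting error only.

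Olfactory receptors are G protein-coupled receptors that detect odorants. They form the largest gene family of the mouse, and a mature olfactory neuron expresses a single allele of a single receptor gene while the other members stay silent. In olfactory neurons the silent receptor genes are packed in heterochromatin that carries H3K9me3 and H4K20me3. EHMT2, also called G9a, acts with EHMT1 to deposit H3K9me2, a mark of broad silent domains. The receptor genes have short coding regions, usually within a single exon, and lie in clusters rich in LINE-1 retrotransposons.

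The spans covered 36.6 Mb, or 1.38% of the assembled bases. Of the 1407 genes, 1135 were annotated as protein-coding and 272 as pseudogenes of some kind. The largest cluster, between Olfr996 and Olfr1274-ps at chr2:85529215-90453897, held 278 Olfr genes in 4.92 Mb, whereas 32 spans held a single Olfr gene. The 26 spans with at least 10 Olfr genes contained 1222 of them. The spans also held 240 protein-coding genes of other families. Soft-masked bases, which the reference genome writes in lower case because they match known repeats, made up 45.7% of the spans and 36.4% of the genome. Runs of soft-masked bases of 5 kb or more covered 4.97% of the spans and 4.76% of the genome. A 31-base word starting at a given position occurred once in the genome at 73.2% of span positions and at 80.6% of all positions.

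The sequences under the summits show which kinds of DNA the span peaks sat on. Each is 200 bases of the GRCm38 (mm10) assembly centred on a summit and written 5′ to 3′. In the first pair the capitals mark the longest run of 49 bases that is identical between the strongest peaks of the most frequent sequence group, which overlapped peaks of all 3 ChIP lists.
Group 1, chr6:40541575-40541774, plus strand: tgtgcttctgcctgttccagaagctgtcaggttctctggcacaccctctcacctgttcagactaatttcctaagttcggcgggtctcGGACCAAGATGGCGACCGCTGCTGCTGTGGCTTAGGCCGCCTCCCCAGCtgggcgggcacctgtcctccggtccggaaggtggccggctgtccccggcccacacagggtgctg
Group 1, chr6:73453966-73454165, plus strand: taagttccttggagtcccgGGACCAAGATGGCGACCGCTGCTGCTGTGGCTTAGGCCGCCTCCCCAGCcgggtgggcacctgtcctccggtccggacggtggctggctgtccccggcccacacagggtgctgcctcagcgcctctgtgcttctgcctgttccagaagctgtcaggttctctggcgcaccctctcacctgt
In the second pair the capitals mark a run of 51 bases shared by the strongest peaks of the next group. The first of them was called in both DMSO lists and the second with ab9110 in DMSO alone.
Group 2, chr2:90272624-90272823, plus strand: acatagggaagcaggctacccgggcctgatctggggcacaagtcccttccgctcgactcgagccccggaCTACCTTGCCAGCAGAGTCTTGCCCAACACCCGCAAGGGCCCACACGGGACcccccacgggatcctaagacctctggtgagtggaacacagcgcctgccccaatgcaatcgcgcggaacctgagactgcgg
Group 2, chr1:173260797-173260996, minus strand: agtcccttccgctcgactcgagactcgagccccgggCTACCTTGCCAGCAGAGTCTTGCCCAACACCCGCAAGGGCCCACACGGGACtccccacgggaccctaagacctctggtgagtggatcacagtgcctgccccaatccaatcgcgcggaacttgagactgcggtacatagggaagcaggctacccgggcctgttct
Single peaks of other kinds follow, with the 31 bases at the summit in capitals. The C29F4 peak with the highest fold outside the group 1 pair lay in a tandem repeat, in which 83.4% of bases matched the base 37 positions further on.
Tandem repeat, chr15:98448543-98448742, plus strand: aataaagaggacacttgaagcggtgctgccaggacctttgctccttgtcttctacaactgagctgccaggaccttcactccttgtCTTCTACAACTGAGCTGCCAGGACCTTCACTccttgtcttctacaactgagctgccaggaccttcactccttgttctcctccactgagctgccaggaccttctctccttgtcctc
A peak in all 3 ChIP lists lay in an intron of Smim17, a protein-coding gene at the edge of a small cluster, 15 bp from an annotated start of Gm20715 and in sequence that occurs once.
Smim17 intron, chr7:6410162-6410361, plus strand: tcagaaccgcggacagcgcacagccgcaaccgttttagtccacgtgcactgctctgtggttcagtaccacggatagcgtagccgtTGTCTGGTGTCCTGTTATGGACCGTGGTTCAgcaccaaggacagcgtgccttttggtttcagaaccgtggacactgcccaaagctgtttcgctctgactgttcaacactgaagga
A C29F4 peak that neither ab9110 ChIP list held lay 1220 bp from Olfr368, in AT-rich sequence that occurs once and without a CG dinucleotide.
Near Olfr368, chr2:37325195-37325394, plus strand: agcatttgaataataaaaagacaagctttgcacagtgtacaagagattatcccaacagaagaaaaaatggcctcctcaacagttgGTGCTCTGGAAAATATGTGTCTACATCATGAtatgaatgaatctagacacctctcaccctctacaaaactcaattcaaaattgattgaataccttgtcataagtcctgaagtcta
A peak called with ab9110 after dTAG and not in DMSO lay at the start of Fam160a2, in sequence with 31 CG dinucleotides in 200 bases.
Fam160a2 start, chr7:105399861-105400060, plus strand: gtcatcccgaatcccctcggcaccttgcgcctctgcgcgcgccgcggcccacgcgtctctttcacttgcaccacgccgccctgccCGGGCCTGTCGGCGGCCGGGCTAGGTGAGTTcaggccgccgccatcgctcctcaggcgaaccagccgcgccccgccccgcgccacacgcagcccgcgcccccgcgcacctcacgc

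The C29F4 list was denser in the olfactory spans than in the genome, and the ab9110 dTAG list was sparser. The spans held 207 C29F4 peaks against 152 at the list's genome-wide density, a ratio of 1.36 (interval 1.18 to 1.56). The ab9110 DMSO list came from the same kind of cells in a separate experiment with another antibody. It held 603 peaks against 565, a ratio of 1.07 (0.984 to 1.16) that did not differ from the genome beyond counting error. The ab9110 dTAG list held 186 peaks against 226, a ratio of 0.823 (0.709 to 0.951). The input list held 37 peaks against 28.3, a ratio of 1.31 (0.920 to 1.80) whose interval reached from below the genome-wide density to above the C29F4 ratio. As shares of their lists, the span peaks made up 1.88% (1.63 to 2.15%) for C29F4, 1.48% (1.36 to 1.60%) for ab9110 DMSO and 1.14% (0.982 to 1.31%) for ab9110 dTAG. In the vomeronasal receptor spans, 87 intervals built in the same way around 565 genes of the Vmn1r and Vmn2r families, the ratios were 1.11 (0.925 to 1.31), 0.930 (0.842 to 1.03) and 0.769 (0.645 to 0.911) for C29F4, ab9110 DMSO and ab9110 dTAG. Each of these intervals overlapped that of the olfactory spans for the same list. For the input, the vomeronasal ratio was 1.88 (1.35 to 2.55), from 41 peaks.

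**Figure D1:**
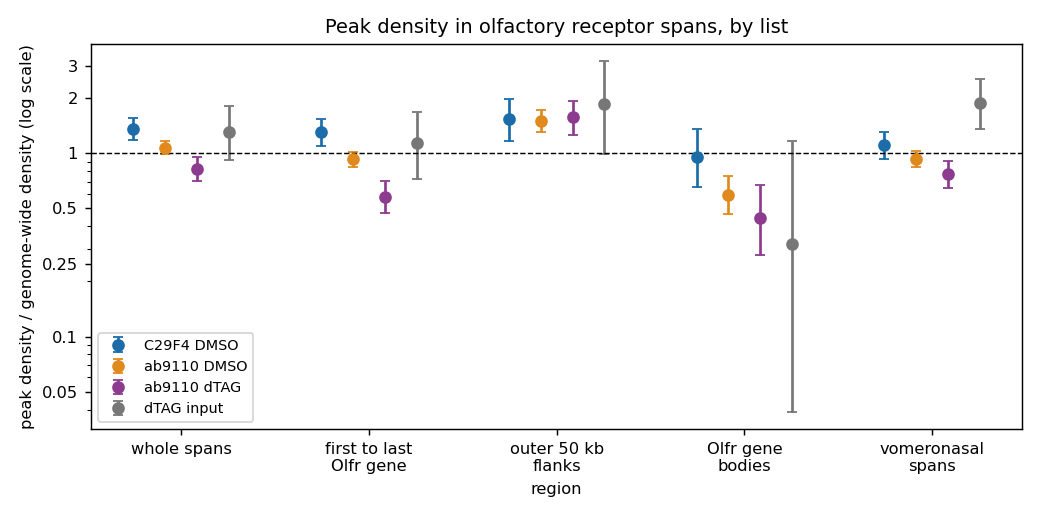
Peak density in the olfactory spans divided by the genome-wide density of the same list, on a log scale, for whole spans, the part between the first and last Olfr gene, the outer flanks, Olfr gene bodies and vomeronasal spans. Points are single lists and bars are Poisson 95% intervals; the C29F4 ratio is 1.30 and the ab9110 dTAG ratio 0.577 between the first and last Olfr gene, while all 3 ChIP lists lie between 1.5 and 1.57 in the flanks.

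The lists differed inside the clusters and resembled each other at the edges. Between the first and the last Olfr gene of each span, the C29F4 list had 149 summits against 115 at its genome-wide density (ratio 1.30, 1.10 to 1.53), ab9110 DMSO had 393 against 425 (0.926, 0.836 to 1.02) and ab9110 dTAG had 98 against 169.8 (0.577, 0.469 to 0.703). In the outer flanks, which hold no Olfr gene, the ratios were 1.53 (1.16 to 1.98), 1.5 (1.30 to 1.71) and 1.57 (1.26 to 1.93). The input ratio was 1.13 (0.722 to 1.68) between the first and last Olfr gene and 1.85 (0.984 to 3.16) in the flanks. Over Olfr gene bodies themselves, the C29F4 list was at its genome-wide density, with 32 peaks against 33.5 (0.954, 0.653 to 1.35). Both ab9110 lists were sparser there, with 74 peaks against 124 in DMSO (0.595, 0.467 to 0.747) and 22 against 49.7 after dTAG (0.443, 0.277 to 0.670). Over gene bodies no excess of C29F4 peaks was seen, though the interval there overlapped that of the whole spans. Gene bodies were 26.3% soft-masked, with 0.796% in runs of 5 kb or more, against 45.7% and 4.97% in the spans. The gene-body ratios do not allow for this.

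**Figure D2:**
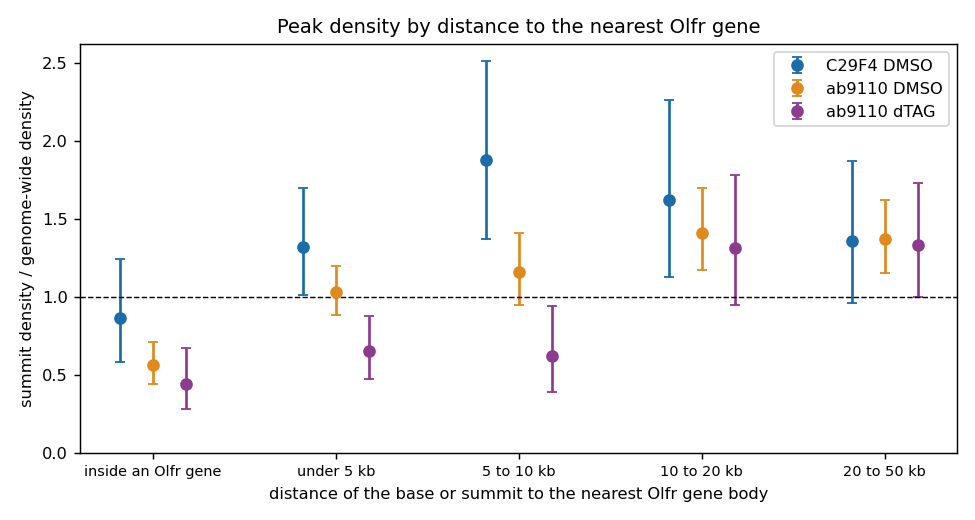
Summit density divided by the genome-wide density of the list (y axis) in bins of distance to the nearest Olfr gene body (x axis), for the 3 ChIP lists. Points are single lists and bars are Poisson 95% intervals; the C29F4 ratio is 1.88 at 5 to 10 kb, where the ab9110 dTAG ratio is 0.619, and beyond 10 kb the ab9110 dTAG ratio is 1.31 to 1.33.

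The plot of density by distance shows the same order in steps. Inside Olfr genes lay 29 C29F4 summits, 70 ab9110 DMSO summits and 22 ab9110 dTAG summits, at ratios of 0.865 (0.580 to 1.24), 0.563 (0.439 to 0.712) and 0.443 (0.278 to 0.670). At 5 to 10 kb from the nearest receptor gene, C29F4 had 45 summits against 24.0 at its genome-wide density (1.88, 1.37 to 2.51) and ab9110 dTAG had 22 against 35.5 (0.619, 0.388 to 0.938). The input had 9 summits against 4.45 there (2.02, 0.924 to 3.84). At 10 to 20 kb, the ratios were 1.62 (1.13 to 2.3) for C29F4, 1.41 (1.17 to 1.70) for ab9110 DMSO and 1.31 (0.947 to 1.78) for ab9110 dTAG, and these intervals overlapped. Most span peaks were intergenic, with 156 of 207 C29F4 summits (75.4%), 443 of 603 ab9110 DMSO summits (73.5%) and 117 of 186 ab9110 dTAG summits (62.9%). Exons of Olfr genes held 12, 41 and 13 summits and introns of Olfr genes 17, 28 and 9, respectively.

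The ab9110 dTAG list was sparser in large clusters than in small ones. In the 26 spans with at least 10 Olfr genes the ab9110 dTAG list had 105 peaks against 164 at its genome-wide density (0.641, 0.524 to 0.776), and in the other spans it had 81 against 62.1 (1.31, 1.04 to 1.62). The C29F4 ratio was 1.38 (1.17 to 1.61) in the large clusters and 1.31 (0.990 to 1.71) in the others. The ab9110 DMSO ratio was 1.00 (0.906 to 1.10) and 1.24 (1.07 to 1.43), in the same direction as after dTAG but with overlapping intervals. The added 50 kb flanks make up more of a small span than of a large one. Cluster size and flanks were therefore not separated here.

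**Figure D3:**
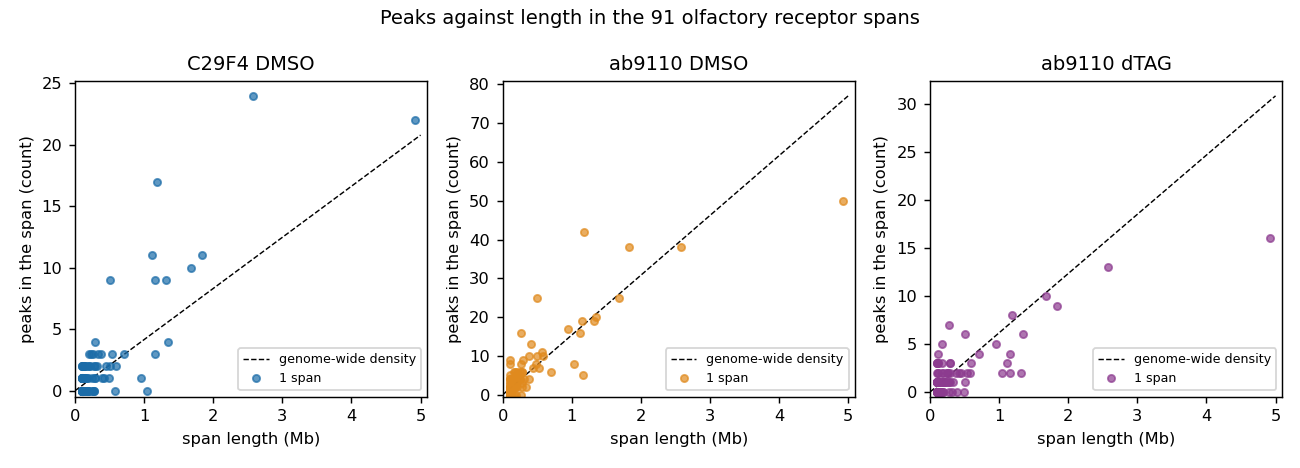
Peaks in each of the 91 olfactory spans (y axis, count) against span length in Mb (x axis), in a panel for each ChIP list. Each point is a span and the dashed line is the genome-wide density of the list; the 4.92 Mb span on chromosome 2 holds 22 C29F4 peaks, close to the line, and 50 ab9110 DMSO and 16 ab9110 dTAG peaks, below it.

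Counts in single clusters varied. Clusters named for having the most peaks, or no C29F4 peak, were chosen by those counts, so their intervals are a description and not a test. A C29F4 peak was present in 56 of the 91 spans, an ab9110 DMSO peak in 78, an ab9110 dTAG peak in 65 and an input peak in 25. The cluster from Olfr160 to Olfr986 at chr9:37658964-40240134 had the most C29F4 peaks, 24 against 10.7 at the genome-wide density (counting interval 15.4 to 35.7), with 38 ab9110 DMSO peaks against 39.8 and 13 ab9110 dTAG peaks against 15.9. The cluster from Olfr467 to Olfr519 at chr7:107762263-108944420 had 17 C29F4 peaks against 4.92 (9.90 to 27.2) and 42 ab9110 DMSO peaks against 18.2 (30.3 to 56.8), but 8 ab9110 dTAG peaks against 7.29. The largest cluster, on chromosome 2, had 22 C29F4 peaks against 20.5 (13.8 to 33.3), 50 ab9110 DMSO peaks against 75.9 (37.1 to 65.9) and 16 ab9110 dTAG peaks against 30.4 (9.15 to 26.0). It was thus at the genome-wide density for C29F4 and below it for both ab9110 lists.

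The span from Olfr543 to Olfr650-ps1 at chr7:102426579-104257865, which also holds the Hbb genes and lies in the region of the class I receptors, had 11 C29F4 peaks against 7.62 (ratio 1.44, 0.721 to 2.58), 38 ab9110 DMSO peaks against 28.2 (1.35, 0.953 to 1.85) and 9 ab9110 dTAG peaks against 11.3 (0.797, 0.364 to 1.51). The other 90 spans together had ratios of 1.35, 1.05 and 0.825, inside each of those intervals. The span from Olfr24 to Olfr18 at chr9:18701507-20386094 had the third highest ab9110 dTAG count, 10 against 10.4. Among the spans without a C29F4 peak, the longest were Olfr1275 to Olfr1319-ps1 at chr2:111180360-112217997 (4.32 peaks at the genome-wide density), Olfr693 to Olfr716 at chr7:106625005-107200581 (2.39) and Olfr1409-ps1 to Olfr418 at chr1:173047997-173323994 (1.15). The first of these also had few ab9110 DMSO peaks, 8 against 16, and 2 ab9110 dTAG peaks against 6.40. Taking spans singly, the interval of the count lay above the genome-wide density in 4 spans and below it in 1 for C29F4, in 7 and 4 for ab9110 DMSO, and in 4 and 2 for ab9110 dTAG. Among 91 spans, some intervals can lie outside by counting error alone, and no allowance was made for this. Over the 40 spans of at least 0.2 Mb, the density of C29F4 peaks had a median of 4.48 per Mb and a range of 0 to 17.9, and its Spearman correlation with the share of the span in long soft-masked runs was 0.227, given as a description because the spans share libraries and base composition.

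Peaks at transcription starts behaved unlike the rest of the span peaks. Positions within 1 kb of an annotated start made up 17% of span bases and 6.05% of the genome, since the spans are dense in short genes. On these positions the ab9110 dTAG list had 58 summits against 278 at its own density near starts (ratio 0.208, 0.158 to 0.269), and the ab9110 DMSO list had 112 against 265 (0.423, 0.349 to 0.509). The C29F4 list had 30 against 30.8 (0.975, 0.658 to 1.39). Further than 1 kb from any start, the ratios were 1.42 (1.22 to 1.64) for C29F4, 1.18 (1.08 to 1.29) for ab9110 DMSO and 1.14 (0.954 to 1.36) for ab9110 dTAG. The input ratio there was 1.49 (1.02 to 2.11), from 32 peaks of the dTAG input. Whether the ChIP ratios above 1 depend on pulldown was not tested. The low density of the ab9110 dTAG list in the spans was thus not seen away from starts, where its ratio was on the other side of 1.

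The start-near peaks of the ab9110 lists mostly belonged to genes other than receptors. Of the 58 ab9110 dTAG peaks near a start, 43 were near the start of a protein-coding gene of another family and 12 near the start of an Olfr gene. In ab9110 DMSO these numbers were 62 and 37 of 112, and in C29F4 10 and 15 of 30. Of the 240 other protein-coding genes in the spans, 48 had an ab9110 dTAG summit within 1 kb of a start (20%, 15.1 to 25.6%), against 31.9% of all 21938 protein-coding genes. An ab9110 DMSO summit was near a start of 63 (26.2%, 20.8 to 32.3%), against 25.1%, and a C29F4 summit near a start of 12 (5%, 2.61 to 8.57%), against 2.34%. The ab9110 dTAG peaks of highest fold were at Patl1, which codes for an mRNA decay factor (fold 7.40 after dTAG and 3.21 in DMSO), and at the shared start of Cfap57 and Ebna1bp2 (5.35 after dTAG, no DMSO peak). Zscan12, a zinc finger gene, had folds of 5.31 and 4.41, and Rab8a, a small GTPase of vesicle transport, 5.19 and 2.92. Cldnd1 (5.12 and 2.52), the zinc finger genes Zfp354a (5.1 and 3.41) and Zfp2 (5.07 and 2.54), and Fam160a2 (5.05, no DMSO peak) followed. None of these peaks overlapped a C29F4 peak, although Zscan12 had a separate C29F4 peak of fold 3.24 near its start. The peak at Gm20715 in the Smim17 intron was the exception, with folds of 14.4 for C29F4, 13.1 for ab9110 DMSO and 5.07 for ab9110 dTAG. Fold is the authors' ratio of fragments to background at the summit, and no test compared the folds of these lists. The genes were picked by their fold after dTAG, which favours dTAG folds above DMSO folds. Over the whole lists the median fold was 3.78 for ab9110 dTAG and 3.28 for ab9110 DMSO.

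Edges of some spans carried several such genes. The span from Olfr1366 to Olfr1359 at chr13:21485113-21756833 reaches into a histone gene cluster and had 16 ab9110 DMSO peaks against 4.19 and 7 ab9110 dTAG peaks against 1.68, with 2 C29F4 peaks against 1.13. The 8 core histone genes annotated there as protein-coding, named after their values were seen, all had a start near an ab9110 dTAG peak that overlapped a DMSO peak and no C29F4 peak. Hist1h2ai and Hist1h2bl shared a peak of fold 4.97 after dTAG and 2.77 in DMSO, and Hist1h2ak and Hist1h2bn a peak of 4.91 and 4.55 that also overlapped an input peak of 4.44. The folds were 4.79 and 3.06 at Hist1h4j, 4.09 and 2.85 at Hist1h4k, and 3.61 and 2.54 at Hist1h3h. They were 4.54 and 2.99 at Hist1h2bm, whose peak lies over the pseudogene Hist1h2aj. The word at the ab9110 dTAG summit, as defined above, had 12 copies in the genome at Hist1h2ai and Hist1h2bl. It had 10 at Hist1h4k, 3 at Hist1h3h and 2 at Hist1h2bm. Reads with several locations were placed at random, so these peaks cannot be assigned to single genes. At Hist1h4j and at Hist1h2ak and Hist1h2bn the word had no other copy.

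The C29F4 peaks near starts of other genes, also named after their values were seen, were at different kinds of genes. After Gm20715 the highest fold was at Rrm1, a subunit of ribonucleotide reductase, with 7.01 for C29F4, 6.94 for ab9110 DMSO and 4.21 for ab9110 dTAG. Hfm1, a helicase of meiotic crossing-over, had 4.50 for C29F4 and 7.57 for ab9110 DMSO. Morc2b, also of meiotic cells, had 4.41 and 2.96, and the meiosis gene Spata22 shared a peak of 3.69 and 3.21 with Aspa and Gm49340. The C29F4 peaks at Hfm1, Morc2b and Spata22 overlapped no ab9110 dTAG peak, but Hfm1 had a separate ab9110 dTAG peak of fold 4.10 near its start, which overlapped the DMSO peak.

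Span peaks were richer in repeats than the peaks of the whole lists. Of all bases within C29F4 span peaks 67.5% were soft-masked, against 57.1% in the whole list, with 57.2% against 42.0% for ab9110 DMSO and 41.9% against 26.1% for ab9110 dTAG. In the input the shares were 58.9% and 51.3%. Summits in soft-masked runs of at least 5 kb, a length close to that of a complete LINE-1 element, were 54 of 207 for C29F4 (26.1%, 20.2 to 32.6%), against 25.1% in the whole list. They were 86 of 603 for ab9110 DMSO (14.3%, 11.6 to 17.3%) against 10.2%, 31 of 186 for ab9110 dTAG (16.7%, 11.6 to 22.8%) against 8.15%, and 12 of 37 for the input (32.4%, 18 to 49.8%) against 21.1%. For C29F4 the share in long runs was therefore that of the list, and the shorter soft-masked runs made the difference, with 37.2% (30.6 to 44.2%) of summits against 24.6%. The median distance of long-run summits to the nearer end of the run was 462 bp for C29F4, 372 bp for ab9110 DMSO and 371 bp for ab9110 dTAG, in runs of a median 6767, 6647 and 6703 bp, and it was 1148 bp for the 12 input peaks.

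**Figure D4:**
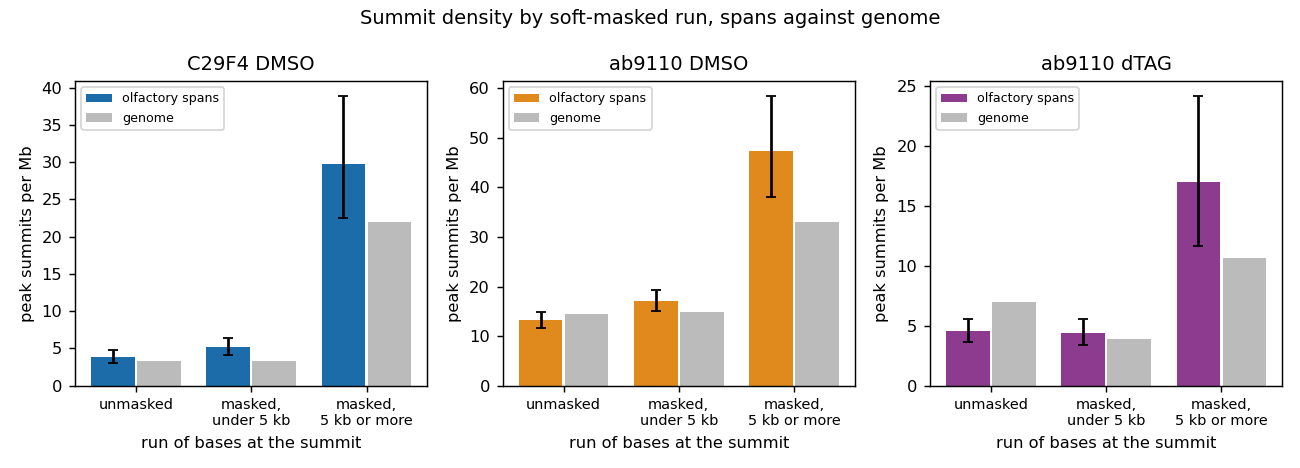
Peak summits per Mb (y axis) on unmasked bases, in soft-masked runs under 5 kb and in runs of 5 kb or more (x axis), for the olfactory spans (coloured bars) and the genome (grey bars), in a panel for each ChIP list. Error bars are Poisson 95% intervals of the span counts; long runs hold 29.7 C29F4 summits per Mb in the spans and 21.9 in the genome, and unmasked bases hold 4.52 ab9110 dTAG summits per Mb in the spans and 6.95 in the genome.

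Densities within each kind of sequence separate the make-up of the spans from the placement of peaks. On long soft-masked runs all 3 ChIP lists were denser in the spans than in the genome, with 29.7 against 21.9 summits per Mb for C29F4 (ratio 1.35, 1.02 to 1.77), 47.3 against 33.0 for ab9110 DMSO (1.43, 1.15 to 1.77) and 17 against 10.6 for ab9110 dTAG (1.61, 1.10 to 2.29). The input ratio there was 1.93 (0.997 to 3.37), from 12 peaks. On shorter runs the ratios were 1.59 (1.26 to 1.99), 1.15 (1.01 to 1.30) and 1.11 (0.857 to 1.42). On unmasked bases they were 1.16 (0.916 to 1.45), 0.916 (0.808 to 1.03) and 0.651 (0.523 to 0.800), so that the deficit of ab9110 dTAG peaks lay on unmasked sequence. If every kind of sequence in the spans had carried its genome-wide density, 154 C29F4, 568 ab9110 DMSO and 216 ab9110 dTAG peaks would have been in the spans, and the ratios to these counts were 1.35 (1.17 to 1.54), 1.06 (0.979 to 1.15) and 0.861 (0.742 to 0.994). Allowing for the kinds of sequence thus moved each ratio by less than its interval.

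A read from a repeat can come from many places. The authors assigned each such read to 1 of its locations, so which of several like copies carried a peak cannot be told apart. The 31-base word at the summit occurred once in the genome for 109 of 207 C29F4 span peaks (52.7%, 45.6 to 59.6%; whole list 61.5%), 341 of 603 ab9110 DMSO peaks (56.6%, 52.5 to 60.5%; 73.4%) and 110 of 186 ab9110 dTAG peaks (59.1%, 51.7 to 66.3%; 81.2%). Counted over bases with such words alone, the density ratio was 1.28 (1.05 to 1.54) for C29F4, 0.905 (0.811 to 1.01) for ab9110 DMSO and 0.660 (0.543 to 0.796) for ab9110 dTAG. For the input it was 0.997 (0.531 to 1.70), from 13 peaks. The order of the lists was the same in single-copy sequence, and each ratio was lower than over all bases.

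Recurrent sequences were found among the span peaks without use of any repeat annotation. The peaks of the 3 ChIP lists formed 757 loci, and loci were grouped when their 200-base windows shared at least 20 words of 31 bases. This placed 154 loci in 35 groups, and 82 of the 97 loci in long soft-masked runs were in a group. Group 1 held 39 loci in 20 spans on 10 chromosomes, with the sequence shown above for chr6:40541575-40541774. Each locus exists only because at least 1 of the 3 lists has a peak there, so the counts by list are a description and not a test. A C29F4 peak was present at 38 of the group 1 loci, an ab9110 DMSO peak at 39 and an ab9110 dTAG peak at 24 (61.5%). Group 2 held 23 loci in 18 spans on 11 chromosomes, with the sequence shown for chr2:90272624-90272823. It had a C29F4 peak at 10 loci, an ab9110 DMSO peak at 21 and an ab9110 dTAG peak at 1 (4.35%). Of these loci, 36 in group 1 and 21 in group 2 lay in soft-masked runs of 5 kb or more, and the median word occurred 2132 and 2242 times in the genome.

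**Figure D5:**
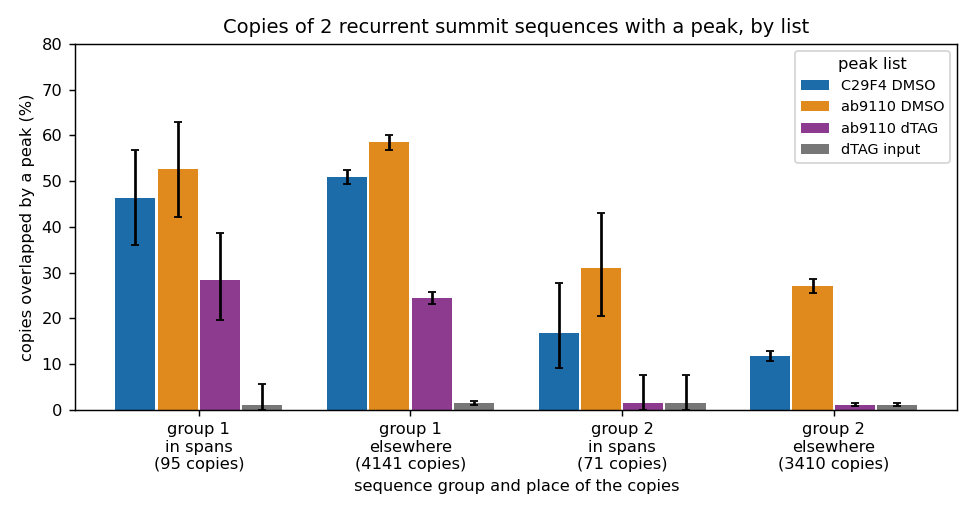
Share of genomic copies of the sequences of groups 1 and 2 that are overlapped by a peak (y axis, %), for copies in the olfactory spans and elsewhere (x axis), by peak list. Bars are single lists with Clopper-Pearson 95% intervals; after dTAG, 28.4% of group 1 copies and 1.41% of group 2 copies in the spans have a peak, and 24.4% and 1.06% elsewhere.

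The 2 sequences were then located along the whole genome, as stretches sharing at least 20 such words. The spans held 95 copies of group 1, or 2.59 per Mb against 1.59 elsewhere, and 71 copies of group 2, or 1.94 per Mb against 1.31. Since the sequences had been taken from span peaks, the shares of span copies with a peak are a description. Peaks elsewhere were not used to pick the sequences. However, reads from like copies were placed at random, so copies in the spans and elsewhere are not independent. Of 4141 group 1 copies outside the spans, 51.0% (49.4 to 52.5%) had a C29F4 peak, 58.5% (56.9 to 60.0%) an ab9110 DMSO peak, 24.4% (23.1 to 25.8%) an ab9110 dTAG peak and 1.45% (1.11 to 1.86%) an input peak. Of 3410 group 2 copies outside the spans, these shares were 11.8% (10.7 to 12.9%), 27.0% (25.5 to 28.5%), 1.06% (0.740 to 1.46%) and 1.11% (0.790 to 1.53%). The lists differ in length and depth, so shares of different lists are not set against each other here. Within the ab9110 dTAG list, which both groups share, the intervals of the group 1 and group 2 shares did not overlap. These intervals treat copies as independent. Outside the spans, ab9110 DMSO peaks had a median fold of 7.43 with the group 1 sequence and 3.31 with the group 2 sequence. Whether peak strength and the lower depth of the ab9110 dTAG library account for the difference was not tested. In the spans, the shares for group 1 were 46.3% (36.0 to 56.8%), 52.6% (42.1 to 63.0%) and 28.4% (19.6 to 38.6%) for C29F4, ab9110 DMSO and ab9110 dTAG, and for group 2 16.9% (9.05 to 27.7%), 31% (20.5 to 43.1%) and 1.41% (0.0357 to 7.60%), the same order as elsewhere.

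The share of C29F4 span peaks that the ab9110 lists shared was that of the whole list. Of the 207 peaks, 134 overlapped an ab9110 DMSO peak (64.7%, 57.8 to 71.2%), against 67% over all C29F4 peaks, and 41 were also called after dTAG (19.8%, 14.6 to 25.9%), against 21.7%. Called with ab9110 in DMSO and not after dTAG were 93 (44.9%, 38 to 52.0%), against 46.1%. Neither ab9110 list held 73 of them (35.3%, 28.8 to 42.2%), against 32.2%, and 2 overlapped an input peak (0.966%, 0.117 to 3.45%), against 0.981%. Of the 603 ab9110 DMSO span peaks, 96 were still called after dTAG (15.9%, 13.1 to 19.1%), where the whole list had 18.9%. Of the 186 ab9110 dTAG span peaks, 97 were also called in ab9110 DMSO (52.2%, 44.7 to 59.5%), against 46.8%. Each of these shares had the whole-list share inside its interval. In the reverse direction it lay outside. C29F4 peaks overlapped 43 of the 186 ab9110 dTAG span peaks (23.1%, 17.3 to 29.8%), against 14.8% in the whole list, and 133 of the 603 ab9110 DMSO span peaks (22.1%, 18.8 to 25.6%), against 18.1%.

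The dTAG library was shallower, with a mean fragment coverage of 1.23 against 2.11 for ab9110 DMSO and 3.64 for C29F4, as read from the lowest background in each list. With the ab9110 DMSO fragments scaled to the dTAG coverage, 175 ab9110 DMSO peaks were kept in the spans, 43.0% of C29F4 span peaks overlapped them and 24.2% did so without an ab9110 dTAG peak. In the whole C29F4 list these shares were 49.6% and 30.3%. The ab9110 DMSO density ratio in the spans was then 1.01 (0.868 to 1.17), still above the 0.823 of the ab9110 dTAG list, and the intervals overlapped.

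The overlap of C29F4 peaks with the ab9110 lists differed by the kind of sequence, in the spans as in the whole list. On long soft-masked runs, 48 of 54 C29F4 span peaks overlapped an ab9110 DMSO peak (88.9%, 77.4 to 95.8%; whole list 84.3%) and 23 an ab9110 dTAG peak (42.6%, 29.2 to 56.8%; 37.1%). On unmasked bases, 39 of 76 overlapped an ab9110 DMSO peak (51.3%, 39.6 to 63.0%; whole list 60.7%) and 4 an ab9110 dTAG peak (5.26%, 1.45 to 12.9%; 16%). Of these shares, the last had the whole-list share outside its interval. Of the 41 C29F4 span peaks that overlapped an ab9110 dTAG peak, 24 carried the group 1 sequence. Among the 168 C29F4 span peaks without that sequence, 17 were shared with ab9110 dTAG (10.1%, 6.01 to 15.7%), against 15.1% of such peaks in the whole list, and their density ratio in the spans was 1.32 (1.13 to 1.54). The peaks in both ab9110 lists had a median fold of 6.16 and 82.0% soft-masked bases, those in DMSO alone 3.67 and 64.9%, and those in neither 3.45 and 48.8%. Within 1 kb of a start lay 17 of the 73 peaks in neither list (23.3%), 9 of the 93 in DMSO alone (9.68%) and 4 of the 41 in both (9.76%).

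Named peaks give single cases. Among C29F4 peaks called with ab9110 in DMSO and not after dTAG, the strongest was the tandem repeat at chr15:98448288-98448937, 3945 bp from Olfr281, with 104 fragments at the summit over a background of 5.42 and folds of 16.4 for C29F4 and 6.64 for ab9110 DMSO. Those at chr10:129592787-129594720 (12.1 and 5.05), chr9:38963878-38965963 near Olfr933 (11 and 8.0) and chr2:88710723-88711978 near Olfr1196 (10.7 and 8.52) lay in soft-masked runs of 6534 to 6898 bp and carried the group 1 sequence. The fifth, at chr11:50917557-50918108, lay in single-copy sequence 1617 bp from Zfp2 (8.13 and 2.77). Of the peaks in both ab9110 lists, the strongest lay 496 bp from Olfr461 at chr6:40540616-40542505, with folds of 16.4 for C29F4, 8.82 for ab9110 DMSO and 5.91 for ab9110 dTAG. It was followed by Smim17, with 233 fragments at the C29F4 summit, and by a peak in an intron of the noncoding gene 1700065L07Rik at chr6:73453093-73454803 (12.4, 9.43 and 4.97).

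Some peaks were held by C29F4 or ab9110 dTAG alone. The C29F4 peaks with no ab9110 peak reached folds of 5.61 at chr10:78894265-78895595, 5.42 next to Olfr1330 at chr4:118899509-118899947 and 5.39 near Olfr368 at chr2:37325130-37325408. Of the ab9110 dTAG peaks with no DMSO peak, the strongest were at Cfap57 and Fam160a2 and at chr13:21160487-21161638, 14959 bp from Olfr1368 (5.01). The strongest input peaks were at chr17:38001960-38002131 (7.52), in a 6-base repeat within Olfr323 at chr11:58628650-58628851 (5.72) and at chr16:58863773-58863981 (5.63), of which the first also overlapped an ab9110 DMSO peak.

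By fold, the span peaks ranked near the middle of their lists, and by −log10 q below it. Their median fold stood at percentile 49.1 of the C29F4 list, 51.3 of ab9110 DMSO, 50.3 of ab9110 dTAG and 47.2 of the input. Their median −log10 q stood at percentiles 41.2, 48.2, 43.3 and 23.6. The median folds were 3.67, 3.29, 3.78 and 4.55, with a highest value of 16.4, 16.1, 8.21 and 7.52. Among the 10% of peaks with the highest fold in each list were 24 C29F4 span peaks (11.6%), 66 ab9110 DMSO span peaks (10.9%) and 11 ab9110 dTAG span peaks (5.91%). The median summit of the span peaks had 25, 12, 10.5 and 9 fragments.

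Few receptor genes had a peak. Over the gene body and 1 kb on both sides, 38 of 1407 Olfr genes had a C29F4 peak (2.7%, 1.92 to 3.69%), against 6.22% of all 55413 genes. For ab9110 DMSO it was 99 (7.04%, 5.76 to 8.50%) against 24.8%, for ab9110 dTAG 33 (2.35%, 1.62 to 3.28%) against 21%, and for the input 4 (0.284%, 0.0775 to 0.726%) against 2.04%. The median length was 5.51 kb for Olfr genes and 3.33 kb for all genes. Within 1 kb of the gene start, the shares were 0.782% against 1.38% for C29F4, 1.85% against 12.9% for ab9110 DMSO and 0.640% against 15.0% for ab9110 dTAG. Vomeronasal receptor genes, with a median length of 6.61 kb, had a peak over body and 1 kb in 4.07% (2.60 to 6.05%), 10.6% (8.20 to 13.5%) and 4.60% (3.03 to 6.67%) for the 3 ChIP lists. No peak of any ChIP list was found over 1276 of the 1407 Olfr genes. The lists were not combined in this way over all genes, so this count has no share to be read against.

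The Olfr gene with the strongest C29F4 peak was Olfr461 (ENSMUSG00000068259.4), with a fold of 16.4 and its summit beyond the 3′ end of the gene, 13375 bp from its start. Olfr38 (ENSMUSG00000095236.2) followed with 10.8, also beyond its 3′ end, 7617 bp from the start. Olfr294 (7.67), Olfr165 (7.18) and Olfr1267-ps1 (6.35) had peaks in soft-masked runs of 6436 to 7034 bp, the latter 1773 bp upstream of its start. Olfr142 (6.25), Olfr543 (5.66) and Olfr1330 (5.42) had peaks at single-copy summits, and Olfr1431 (5.44) had its peak 1217 bp upstream of the start. A peak of fold 5.31 lay within the long annotated gene Olfr643 and 1333 bp upstream of Olfr641, which overlaps it, so that it cannot be assigned to either.

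After dTAG, Olfr750 had the strongest ab9110 peak (5.96), 9562 bp from its start. Olfr461 (5.91), Olfr506 (5.05) and the overlapping genes Olfr1034 and Olfr1035-ps1 (4.72, a shared peak) came next, then Olfr736 (4.49) and Olfr109 (4.39). Olfr1123, Olfr275, Olfr568 and Olfr1509 had peaks of fold 4.04 each. The 8 Olfr genes with a peak in all 3 ChIP lists were Olfr461, Olfr38, Olfr165, Olfr56, Olfr643, Olfr1034, Olfr1035-ps1 and Olfr1498-ps1. A further 18 had C29F4 and ab9110 DMSO peaks and no ab9110 dTAG peak, among them Olfr142, Olfr543, Olfr1267-ps1 and Olfr1431, and 20 had an ab9110 dTAG peak only. Such combinations were not counted over all genes, so whether these numbers are unusual is not known.

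The genes that act with the receptors were a mixed group. Of 24 genes of odorant signalling, receptor trafficking and receptor gene choice, 2 had a C29F4 peak over the body and 1 kb, 13 an ab9110 DMSO peak, 12 an ab9110 dTAG peak and 0 an input peak. Over all protein-coding genes these shares were 10.4%, 43.2%, 40.8% and 4.04%, and genes of these lists differ in length. The C29F4 peaks were at Gnal, the G protein alpha subunit of olfactory neurons (fold 4.03), and Ebf1, a transcription factor of receptor expression (3.50). Ebf1 also had folds of 5.74 for ab9110 DMSO and 4.81 for ab9110 dTAG. Adcy3, the adenylyl cyclase of the pathway, had 3.03 and 5.19. Lhx2, a homeodomain factor bound to receptor enhancers, and Kdm1a, a histone demethylase needed for receptor choice, had an ab9110 dTAG peak (3.43 and 3.52) and none in DMSO. The channel genes Cnga2, Cnga4 and Cngb1, the marker gene Omp and the trafficking genes Rtp1 and Rtp2 had no peak in any list. The 7 trace amine-associated receptor genes examined, Taar1 to Taar6 and Taar9, also had none, a number too small to set against those shares. Other members of that family were not examined.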

How the data were processed

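HA ChIP-seq peaks were examined in EHMT2-dTAG mESCs. Per the labels and the methods, the authors aligned reads to mm10 with STAR 2.7.10, keeping 1 random location for reads with several, removed duplicates with Picard 2.26.0 and called peaks with MACS2 2.2.6 at a q-value under 0.05. Whether a control entered the calls is not given in the sources used here. The deposited values of a peak are a fold (a ratio of fragments to background at the summit), −log10 p, −log10 q, an integer score and the summit offset. Fragments and coverage were derived from fold and −log10 p. This was not possible for 3 C29F4 peaks.

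Spans were built from GENCODE M21, and sequence and soft-masking came from the RefSeq copy of GRCm38.p6, in which repeat families are not named. Density ratios have exact Poisson intervals and shares Clopper-Pearson intervals. Peaks are not replicates, and no p-value was computed. Functions were tested on simulated intervals, sequences and peaks. Python 3 with numpy, pandas and scipy was used. The C29F4 replicates were deposited as a merged list and could not be compared, and the C29F4 inputs and the ab9110 DMSO input were not analysed here.

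The members, lists, tests and the rule for named items were chosen with earlier results of these data known. The rule named the 5 C29F4 span peaks of highest fold shared with ab9110 DMSO and with neither dTAG nor input, and the 3 of highest fold in both ab9110 lists, in neither, in dTAG without DMSO and in the input. It named the 3 spans with most peaks in each ChIP list (ties included), the 3 longest without a C29F4 peak, the span with the Hbb genes, up to 10 Olfr genes by fold for C29F4 and for dTAG, and up to 10 other protein-coding genes with a dTAG summit within 1 kb of a start. Alternatives changed the span width, the gene class, the overlap rule, the q-value, the depth and the repeat run length.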

Additional observations from a re-analysis of the deposited data

How the results depend on the processing

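No paired analysis was possible because the C29F4 replicates 4 and 5 were deposited as a merged peak list and no test was run. For the same reason no replicate could be left out. Of 103 alternative values, 56 stayed within the interval of the main value or, for counts of genes, within 1.5 times of it. The C29F4 density ratio stayed above 1 in every alternative except that without added distance. With no distance added to the genes, only gene bodies were counted, and the ratio turned to 0.954 for C29F4 and was 0.595 (ab9110 DMSO), 0.443 (ab9110 dTAG) and 0.321 (input). For summits over 1 kb from any start, chosen after seeing the data, the ab9110 dTAG ratio turned to 1.14 and the ab9110 DMSO ratio was 1.18. On words occurring once these ratios were 0.660 and 0.905. At q under 0.001 the ab9110 dTAG ratio was 0.679, and at q under 0.01 the input ratio was 0.773, from 6 peaks.

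Shares of overlapping peaks depended on the overlap rule, on q and on depth. For C29F4 in ab9110 DMSO the share was 55.6% where 50% of the peak had to be covered, 45.9% with summits at most 250 bp apart, 54.7% at q under 0.001, 49.3% with the DMSO list reduced to the size of the dTAG list and 43.0% with DMSO fragments scaled to the dTAG coverage. For C29F4 in ab9110 dTAG it was 9.18% with the overlap of 50% and 11.3% at q under 0.001. For ab9110 DMSO in ab9110 dTAG it was 10.9% (overlap of 50%), 12.1% (summits), 21.3% (q under 0.01), 19.9% (q under 0.001), 31.9% (equal size) and 35.4% (scaled). For ab9110 dTAG in ab9110 DMSO the same settings gave 43.0%, 39.8%, 69.4%, 75%, 42.5% and 36.6%. C29F4 peaks called with ab9110 in DMSO and not after dTAG were 32.9% (summits), 30.0% (equal size) and 24.2% (scaled).

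Within 5 kb of a start lay 48.8% of C29F4, 51.7% of ab9110 DMSO, 56.5% of ab9110 dTAG and 40.5% of input summits, and at q under 0.01 38.9% of ab9110 dTAG summits lay within 1 kb. For ab9110 DMSO, 19% of summits lay in long runs at q under 0.01, and 18.7% in runs of at least 2 kb. Olfr genes with a peak over the body and 5 kb numbered 94, 240, 70 and 16 for C29F4, ab9110 DMSO, ab9110 dTAG and input, and at the start and 1 kb, chosen after seeing the data, 11, 26, 9 and 1. Apart from settings that changed the bases or lists counted, the cause of these shifts was not tested. The input list holds 37 span peaks, and the ab9110 dTAG library is the shallowest of the ChIP libraries.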
